A study of Homo sapiens with 6 samples.

Results

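Transcripts of 9 immune checkpoint and co-stimulatory ligand genes were examined: CD274, PDCD1LG2, CD276, VTCN1, CD80, ICOSLG, PVR, CD47 and LGALS9. They were chosen by name from a table of 56505 gene rows, and all 9 have a row. The 6 RNA-seq libraries come, per the labels, from MDA-MB-468, an established human line of basal-like, triple-negative breast cancer that was cultured with serum and not treated otherwise. A control short hairpin RNA (pLK0-shControl, here shControl) was used for 3 libraries, and a hairpin against cytokeratin 5, the product of KRT5 (pLK0-shCK5-425222, here shCK5), for the other 3. Only 1 hairpin against KRT5 was sequenced, so effects on other targets cannot be told apart from loss of KRT5. The labels do not say that replicates are separate cultures, so p-values rest on a spread between libraries that may be technical only.

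These ligands sit on the cell surface, or in the case of galectin-9 are also secreted, and set how immune cells respond to the cell that carries them. PD-L1 and PD-L2 bind PD-1 on T cells and restrain them. B7-H3 and B7-H4 are B7 family proteins that also mostly inhibit T cells. B7-1, the product of CD80, binds CD28 and CTLA-4, and the ICOS ligand binds ICOS, which supports activated T cells. PVR binds TIGIT, CD96 and CD226 on T and natural killer cells, CD47 binds SIRP-alpha on macrophages and blocks engulfment, and galectin-9 binds TIM-3. Tumour cells can carry many of them, and interferon-gamma acting through JAK and STAT proteins is the best known inducer of PD-L1. Only transcripts were measured here, not protein at the surface.

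Library totals ran from 68810882 to 83594772 counts. The targeted gene, KRT5, stood at 2044 ± 23.3 CPM in shControl against 16.42 ± 0.845 CPM in shCK5 (SD, n = 3 each); CPM are counts normalized to the TMM-scaled library size. The groups also differed in ways that bear on the identity of the cells. RB1 and SMAD4, which are deleted in MDA-MB-468, were near or below 2 CPM in shControl (1.996 ± 0.136 and 0.2346 ± 0.138 CPM), but stood at 101.0 ± 2.16 and 16.86 ± 0.547 CPM where the label was shCK5. All 8 epithelial markers examined were lower in shCK5, against 41.7% of all genes tested. The summed level of these markers was 9794 to 10050 CPM in shControl and 2639 to 2673 CPM in shCK5. CDH1, which encodes E-cadherin, had 3.892 ± 0.466 CPM there. Whether differences between the groups, those of the ligands included, come from the knockdown or from different cells cannot be told apart.

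Of the 9 ligands, 7 passed the filter on low counts, and CD80 and PVR did not. At an adjusted p of 0.05 (quasi-likelihood test of edgeR, Benjamini-Hochberg over all genes tested) all 7 passed, 4 of them higher in shCK5 (CD274, PDCD1LG2, CD276 and CD47) and 3 lower (VTCN1, ICOSLG and LGALS9). Among all 19567 genes tested, 82.7% passed, 40.9% as higher and 41.7% as lower, so that passing sets no gene apart here. Changes over 2-fold were found for 5 of the 7, against 44% of all genes tested: 2 of the higher ligands (19.6% of all genes) and all 3 lower ones (24.4%). For all 7 every library of 1 group lay above every library of the other, as for 84.2% of all genes tested.

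**Figure D1:**
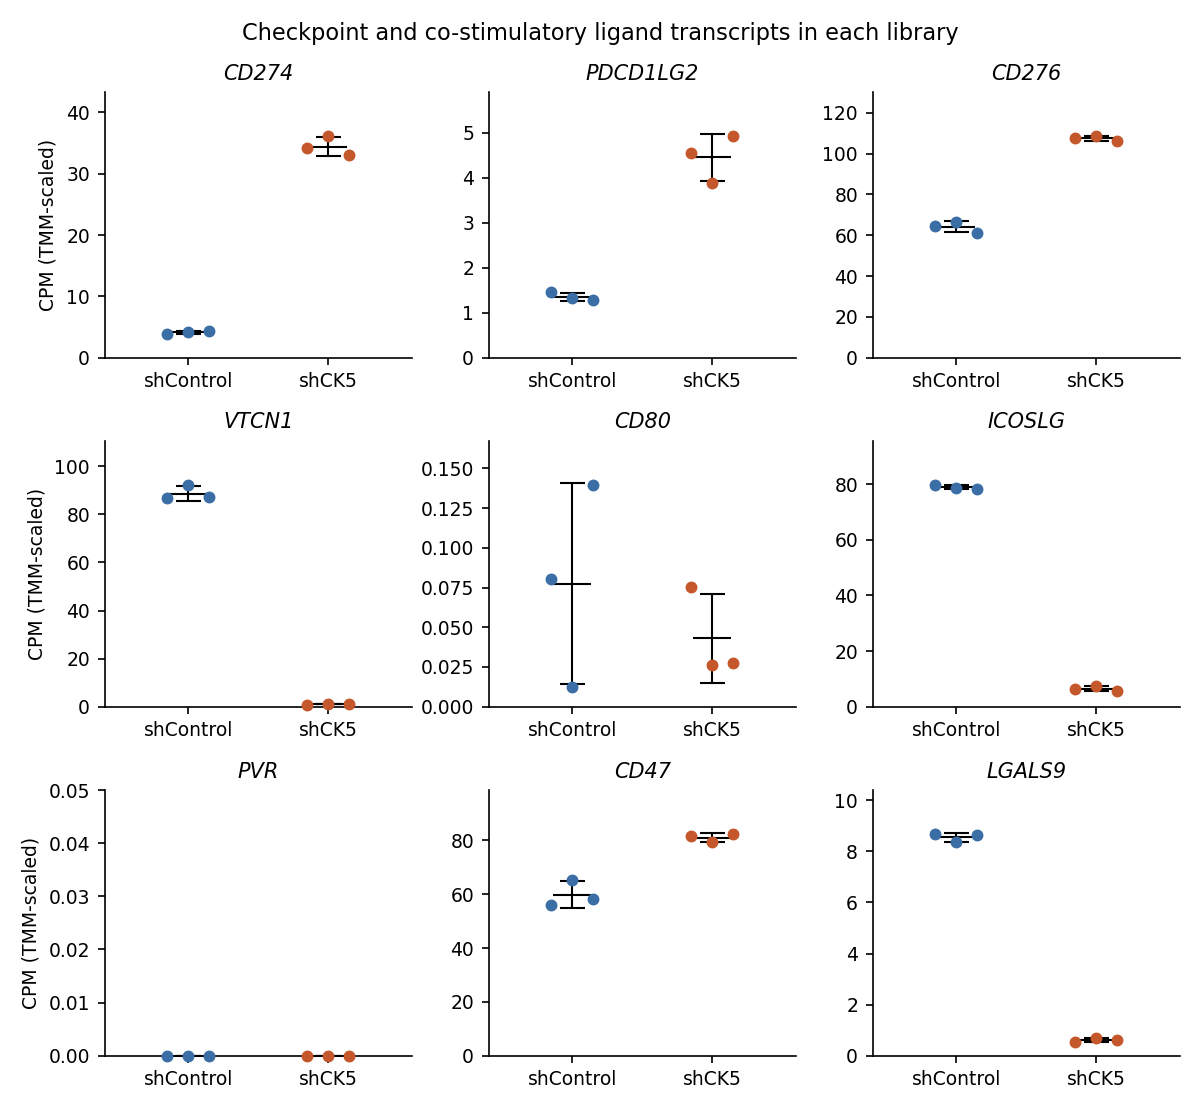
Level of each ligand transcript in every library, in TMM-scaled CPM on a linear axis from 0, with shControl in blue and shCK5 in orange; each point is 1 library, and bars give the mean and SD of 3 libraries. CD274, PDCD1LG2, CD276 and CD47 sit higher in shCK5, VTCN1, ICOSLG and LGALS9 sit lower, CD80 overlaps near 0, and PVR is listed at 0 in all 6 libraries.

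CD274, which encodes PD-L1 (ENSG00000120217.13, chromosome 9, 5450503 to 5470566, plus strand, GRCh38), rose 8.31-fold. The 3 shControl libraries had 3.919, 4.187 and 4.32 CPM (936 counts together), and the 3 shCK5 libraries 34.14, 36.12 and 33.03 CPM (7853 counts together). Every shCK5 library was above every shControl library by a wide gap. On the log2 scale, as shCK5 minus shControl here and below, CD274 rose by 3.06 (SE 0.0626, edgeR adjusted p = 1.02e-23). A larger absolute change was found in 14.1% of the genes tested.

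PDCD1LG2, which encodes PD-L2, the other ligand of PD-1 (ENSG00000197646.7, chromosome 9, 5510570 to 5571254, plus strand), rose less and from a lower level. The shControl libraries had 1.45, 1.329 and 1.282 CPM, and the shCK5 libraries had 4.56, 3.882 and 4.922 CPM. Replicate 2 was the lowest of the shCK5 libraries and still lay well above shControl. This was a 3.29-fold rise, or 1.72 on the log2 scale (SE 0.136, edgeR adjusted p = 1.79e-11). Per kilobase of exon, CD274 and PDCD1LG2 had 1.008 ± 0.0497 and 0.5723 ± 0.0366 CPM in shControl, and 8.381 ± 0.381 and 1.884 ± 0.223 CPM in shCK5.

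The start regions of CD274, LGALS9 and VTCN1 are shown because they are the ligand with the largest rise, a ligand that fell and shares a motif match with it, and the ligand with the largest fall. Windows run from 250 bases before to 50 bases after the RefSeq start (GRCh38.p14), 5′ to 3′ on the gene's strand. Capitals mark the core letters of the interferon-stimulated response element, GAAA repeated after any 2 bases, on either strand, in CD274 and LGALS9, and the AP-1 element TGANTCA in VTCN1.
CD274, chr9:5450292-5450591, plus strand: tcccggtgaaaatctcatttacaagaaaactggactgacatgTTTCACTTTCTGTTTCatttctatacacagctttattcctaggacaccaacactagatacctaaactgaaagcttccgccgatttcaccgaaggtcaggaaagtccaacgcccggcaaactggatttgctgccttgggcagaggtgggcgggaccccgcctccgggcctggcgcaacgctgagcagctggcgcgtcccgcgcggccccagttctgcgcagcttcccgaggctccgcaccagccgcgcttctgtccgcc
LGALS9, chr17:27630938-27631237, plus strand: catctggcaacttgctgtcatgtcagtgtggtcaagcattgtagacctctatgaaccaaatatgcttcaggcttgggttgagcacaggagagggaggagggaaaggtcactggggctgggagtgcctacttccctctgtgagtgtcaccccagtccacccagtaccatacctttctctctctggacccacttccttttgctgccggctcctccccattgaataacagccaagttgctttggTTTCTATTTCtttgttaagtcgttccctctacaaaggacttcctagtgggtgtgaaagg
VTCN1, chr1:117210878-117211177, minus strand: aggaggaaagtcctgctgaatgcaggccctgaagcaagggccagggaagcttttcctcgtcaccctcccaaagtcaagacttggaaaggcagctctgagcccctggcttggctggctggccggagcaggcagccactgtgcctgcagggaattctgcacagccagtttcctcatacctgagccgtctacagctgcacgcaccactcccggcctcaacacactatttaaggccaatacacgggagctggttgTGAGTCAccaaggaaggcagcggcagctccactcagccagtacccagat

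The CD274 window held 2 overlapping matches of the response element core on the opposite strand, at -208 to -199 and -202 to -193 from the start, and 1 match of the gamma-activated sequence TTCNNNGAA at -125 to -117. The LGALS9 window held 1 match of the response element core, from -9 to 1. Among 35116 RefSeq windows of this length, 3.57% held the response element core and 7.66% held TTCNNNGAA on either strand. Of the 8 ligands with a window, CD274 and LGALS9 were those with a match of that core, and CD274 had risen while LGALS9 had fallen. The VTCN1 window held TGANTCA directly after the start, at 2 to 8, a motif found in 7.71% of all windows and in no other ligand's window. These are matches of letters and not measured binding. PDCD1LG2 is not among the windows.

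CD276, which encodes B7-H3 (ENSG00000103855.17, chromosome 15, 73683966 to 73714518, plus strand), was abundant in both groups and rose 1.67-fold. The shControl libraries had 64.51, 66.67 and 61.31 CPM and the shCK5 libraries 107.9, 108.5 and 106.0 CPM. The libraries of each group lay close together, and the groups were clearly apart. The log2 fold change was 0.74 (SE 0.0331, edgeR adjusted p = 1.24e-16). Among the genes tested, 55% changed by more.

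VTCN1, which encodes B7-H4 (ENSG00000134258.16, chromosome 1, 117143587 to 117210960, minus strand), had the largest change of the 9 ligands and fell 82.7-fold. It went from 86.77, 92.09 and 87.05 CPM, or 20057 counts over shControl, to 0.8818, 1.207 and 1.134 CPM, or 244 counts over shCK5. All 3 shCK5 libraries still held reads of it. The log2 fold change was -6.37 (SE 0.0671, edgeR adjusted p = 1.47e-29), and 2.82% of the genes tested changed by more.

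ICOSLG, which encodes the ICOS ligand (ENSG00000160223.17, chromosome 21, 44217014 to 44240966, minus strand), fell 12.1-fold. The shControl libraries had 79.61, 78.71 and 78.25 CPM, and the shCK5 libraries had 6.349, 7.449 and 5.793 CPM. The control values were nearly equal, and every shCK5 library was far below them. The log2 fold change was -3.59 (SE 0.0559, edgeR adjusted p = 3.43e-26).

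CD80, which encodes the co-stimulator B7-1 (ENSG00000121594.11, chromosome 3, 119524293 to 119559602, minus strand), was close to the detection limit. It had 6, 1 and 10 counts in the shControl libraries and 6, 2 and 2 counts in the shCK5 libraries, and the groups overlapped. The ratio of shCK5 to shControl was 0.583 (exact 95% interval 0.239 to 1.35, counting error only), so a difference was not detectable at this depth. Of its exonic bases, 24.93% also lie in exons of TIMMDC1 on the other strand, and without a stated strand setting such reads cannot be told apart. CD86, which encodes the other ligand of CD28 and CTLA-4, had 9 counts over the shControl libraries and none in shCK5.

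PVR, the poliovirus receptor gene (ENSG00000073008.14, chromosome 19, 44643798 to 44663583, plus strand), was listed at 0 in all 6 libraries. This was not read as lack of expression. CEACAM19, a gene on the same strand whose exons share 121 bases with those of PVR, was also listed at 0. In the table, 35.4% of 1815 protein-coding genes with a same-strand exonic overlap with another protein-coding gene had no count, against 13.6% of 14016 genes without an exonic overlap and 9.04% of 3076 genes with an overlap on the opposite strand only. IRF1, IRF9 and SOCS1 were listed at 0 too. IRF9 overlaps another gene on the same strand, while for IRF1 the overlapping exons lie on the opposite strand. SOCS1 shares no exonic base with another gene. What made these rows 0 was not tested.

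CD47, the signal that holds back macrophages (ENSG00000196776.15, chromosome 3, 108043094 to 108091862, minus strand), had the smallest change of the tested ligands. It had 56.05, 65.38 and 58.14 CPM in shControl and 81.7, 79.21 and 82.26 CPM in shCK5. Replicate 2 was the highest control library and stayed below all shCK5 libraries. The log2 fold change was 0.44 (SE 0.0421, edgeR adjusted p = 7.47e-10), a 1.35-fold rise, and 71.5% of the genes tested changed by more.

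LGALS9, which encodes galectin-9 (ENSG00000168961.16, chromosome 17, 27629798 to 27649560, plus strand), fell 14.2-fold. Its level was 8.671, 8.362 and 8.626 CPM in shControl and 0.5165, 0.682 and 0.6083 CPM in shCK5, the latter from 137 counts in all. The groups were far apart, with little spread within either. The log2 fold change was -3.83 (SE 0.128, edgeR adjusted p = 2.98e-19). Reads of LGALS9 can be shared with near-identical copies: the pseudogene LGALS9DP, at 0.6815 ± 0.14 CPM in shControl, also fell (log2 fold change -3.65, SE 0.44, edgeR adjusted p = 4.12e-08), while LGALS9B and LGALS9C had at most 10 counts in any library.

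Because genes differ in length, levels were set side by side per kilobase of exon. The length counts every exonic base of any annotated transcript of the gene, so the order depends on it. In shControl the order was VTCN1 (29.28 ± 0.99 CPM per kilobase), CD276 (11.58 ± 0.486), ICOSLG (8.442 ± 0.0743), CD47 (7.277 ± 0.595), LGALS9 (1.497 ± 0.0292), CD274 and PDCD1LG2, with CD80 below 0.05. In shCK5 it was CD276 (19.39 ± 0.234 CPM per kilobase), CD47 (9.855 ± 0.198), CD274, PDCD1LG2, ICOSLG (0.6991 ± 0.0902), VTCN1 (0.3548 ± 0.0563) and LGALS9 (0.1054 ± 0.0145), again with CD80 last of those detected. No 2 neighbours in either order overlapped between libraries.

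Summed over the 6 B7 family ligands, these levels came to 50.91 ± 1.38 CPM per kilobase in shControl and 30.73 ± 0.48 in shCK5 (SD, n = 3 each). VTCN1 made up 57.5% ± 0.593 of that sum in shControl and 1.15% ± 0.179 in shCK5. The share of CD276 went from 22.7% ± 0.473 to 63.1% ± 0.363, and that of CD274 from 1.98% ± 0.114 to 27.3% ± 0.815. ICOSLG held 16.6% ± 0.462 in shControl and 2.27% ± 0.258 in shCK5. On this scale, B7 transcripts were thus mostly VTCN1 in each shControl library and mostly CD276 in each shCK5 library. The shares depend on the exon lengths used. In CPM not divided by length, shControl had 88.64 ± 3.0 for VTCN1, 78.85 ± 0.694 for ICOSLG and 64.16 ± 2.69 for CD276.

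**Figure D2:**
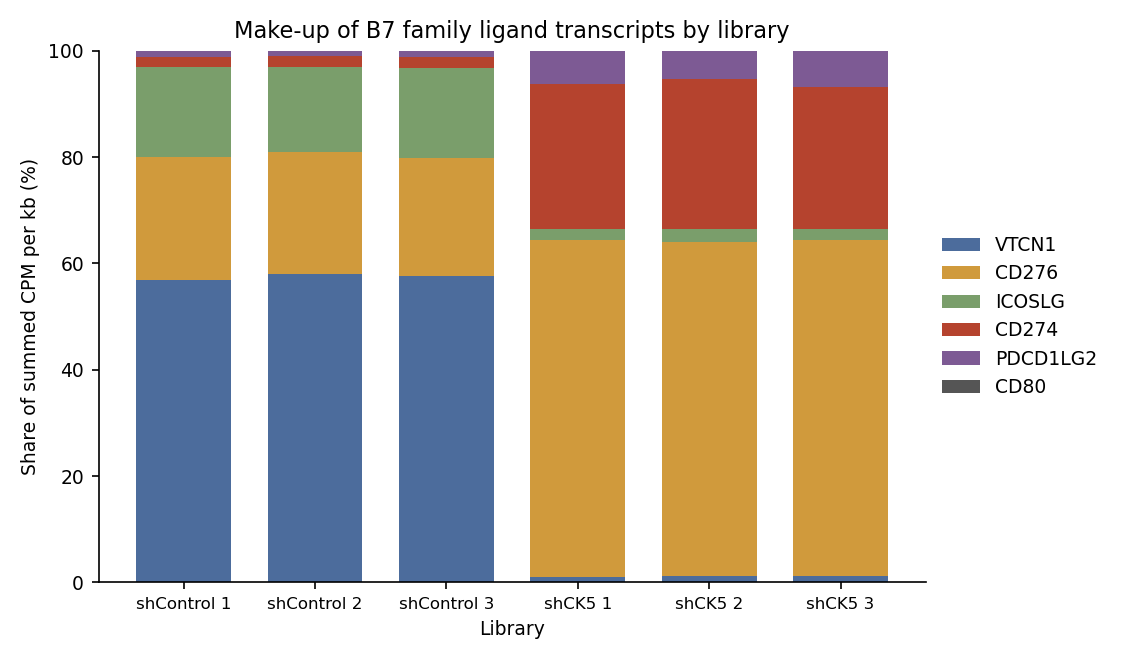
Share of each of 6 B7 family ligands in their summed level per kilobase of exon, in percent, 1 bar for each library. VTCN1 holds 56.9% to 58% of the bar in shControl and at most 1.28% in shCK5, where CD276 holds 62.7% to 63.4% and CD274 26.6% to 28.2%.

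Other ligands of the same families moved in both directions. Of 12 other B7 and butyrophilin genes 7 were tested, with 3 higher, 3 lower and NCR3LG1 not passing (median log2 fold change 0.06, against -0.0194 over all genes tested). BTN2A2 and BTN3A1, which encode butyrophilins, rose by 1.49 and 0.61 on the log2 scale, and BTN3A2 fell by 0.57. BTN2A1 passed narrowly (log2 fold change -0.08, edgeR adjusted p = 0.0228) and lost the call in 6 of 13 alternatives, among them without replicate 1 or 3 of either group (adjusted p up to 0.277). All 5 nectins and nectin-like genes, the family of PVR, passed, 3 higher and 2 lower, against 82.7% passing among all genes tested. The rise of CADM1 rested on 5 counts over shControl and 52 over shCK5. NECTIN3 rose from 0.05378 ± 0.0278 to 120.1 ± 1.55 CPM, and NECTIN2, which encodes a further ligand of TIGIT, from 167.5 ± 3.61 to 196.4 ± 1.89 CPM. NECTIN4 fell from 57.6 ± 3.14 to 2.132 ± 0.433 CPM and NECTIN1 from 149.1 ± 3.84 to 59.13 ± 3.7 CPM.

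Among 8 TNF superfamily co-stimulators 7 were tested, and 3 rose and 4 fell (median log2 fold change -0.42). Of all genes tested, 40.9% rose and 41.7% fell. CD40, the receptor through which T cells license antigen-presenting cells, had 4 counts over the shControl libraries and 25.09 ± 1.05 CPM in shCK5 (ratio 1420.0, exact 95% interval 553.0 to 5200.0). TNFRSF14, the ligand of BTLA, rose from 2.112 ± 0.291 to 6.897 ± 0.336 CPM. CD70, the ligand of CD27, fell from 1.919 ± 0.0743 to 0.1221 ± 0.0374 CPM and TNFSF9, the ligand of 4-1BB, from 8.126 ± 1.37 to 4.046 ± 0.634 CPM. The rise of TNFSF4 (log2 fold change 0.7, edgeR adjusted p = 0.0337) lost its call in 6 of 12 alternatives, among them without shControl replicate 1 or 2 and without shCK5 replicate 2 or 3 (adjusted p up to 0.165).

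Of 13 other immune ligands of the cell surface 10 were tested, and 7 rose and 3 fell (median log2 fold change 0.39). The shares over all genes tested were 40.9% and 41.7%. LGALS1, which encodes galectin-1, rose from 47.51 ± 2.31 to 408.0 ± 13.2 CPM, and CD58, the ligand of CD2, from 21.64 ± 1.16 to 59.42 ± 2.65 CPM. CD24, a further signal against engulfment, fell from 1046 ± 62.4 to 12.08 ± 1.02 CPM. ICAM1, the adhesion ligand of LFA-1, fell from 99.86 ± 1.67 to 6.604 ± 0.734 CPM.

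**Figure D3:**
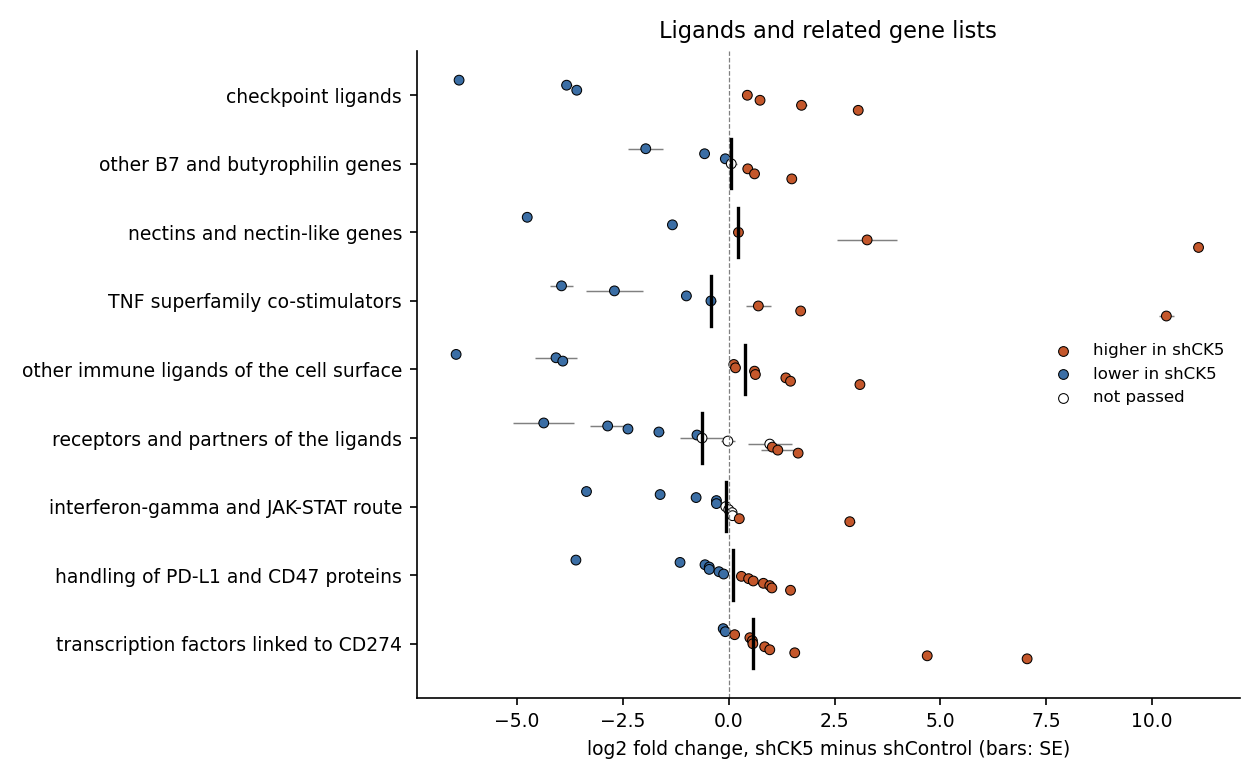
Log2 fold change (shCK5 minus shControl, bars give SE) of every tested gene of the ligands and of 8 related lists; orange is higher and blue lower in shCK5 at the threshold, white did not pass, and black bars are the medians of the related lists. The lists spread to both sides of 0, from -6.44 for CD24 to 11.1 for NECTIN3.

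The receptors for these ligands, mostly genes of leukocytes, ranged in shControl from no count to levels above that of CD274. Per kilobase of exon, SIRPA was above CD274 in shControl (5.638 against 1.008 CPM). In shCK5 it was below CD274 (1.084 against 8.381 CPM). Of 17 receptors and partners 11 were tested, with 3 higher, 5 lower and TIGIT, CD96 and CD226 not passing (median log2 fold change -0.63). For comparison, 40.9% of all genes tested were higher and 41.7% lower. CTLA4 and PVRIG were listed at 0 in all libraries, which, as for PVR, was not read as lack of expression. CD28 had 6 counts in all, and the 8 counts of PDCD1, which encodes PD-1, all came from shControl replicate 3. RGMB, which encodes a partner of PD-L2, rose from 13.55 ± 0.325 to 42.33 ± 1.32 CPM, and THBS1, which encodes the CD47 ligand thrombospondin, from 739.5 ± 48 to 1514 ± 38.2 CPM. SIRPA, which encodes the CD47 receptor, fell from 28.57 ± 0.229 to 5.492 ± 0.459 CPM, and CD160 fell from 6.639 ± 0.202 to 2.114 ± 0.265 CPM. HAVCR2, which encodes TIM-3, fell from 5.461 ± 0.352 to 3.252 ± 0.361 CPM. LAG3 rose by 1.16 on the log2 scale (edgeR adjusted p = 0.0108), a call lost without shControl replicate 1 (0.0667) and without shCK5 replicate 1 (0.0921).

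Markers of other cell types were detected in both groups, and those tested moved in both directions. Rows at 0 in these marker lists were, as for PVR, not read as lack of expression. Of 15 leukocyte markers 6 were listed at 0, among them CD3D, MS4A1, TYROBP, NKG7 and GZMB, and the summed level of the list was 17.15 to 19.99 CPM in shControl and 5.434 to 7.042 CPM in shCK5. PTPRC, which encodes the pan-leukocyte antigen CD45, had 0.6972 ± 0.137 and 0.06228 ± 0.0322 CPM. CSF1R fell from 11.62 ± 0.876 to 1.853 ± 0.408 CPM. CD14, the highest leukocyte marker per kilobase of exon in shControl, fell from 5.019 ± 0.676 to 0.7977 ± 0.217 CPM. CD8A went the other way, from 0.5733 ± 0.0887 to 2.657 ± 0.384 CPM. Of the 6 leukocyte markers tested, 4 fell and 1 rose, where 41.7% of all genes tested fell and 40.9% rose. Summed levels of 9 fibroblast markers were 19.19 to 20.23 and 12.28 to 14.41 CPM, with COL1A1 the highest and THY1 at 0. Within that list PDGFRB rose from 0.4763 ± 0.184 to 4.36 ± 0.301 CPM, while FAP fell from 6.041 ± 0.624 to 0.253 ± 0.0977 CPM and COL1A1 from 12.86 ± 0.167 to 8.702 ± 0.927 CPM. Summed levels of 7 endothelial markers were 4.613 to 6.483 and 6.426 to 7.294 CPM. PECAM1, the highest of them, rose from 2.207 ± 0.688 to 4.227 ± 0.434 CPM and KDR by 0.88 on the log2 scale, while CDH5 fell from 1.296 ± 0.158 to 0.03476 ± 0.0136 CPM. Whether such cells were present in these libraries, which are labelled as MDA-MB-468, was not tested, nor was any part of theirs in the ligand values. In bulk RNA, fewer cells of a type and less RNA per cell cannot be told apart.

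Genes of the interferon-gamma and JAK-STAT route, which induces PD-L1, were tested for 11 of 14 members, with 2 higher, 5 lower and 4 not passing (median log2 fold change -0.07). Shares for the whole set of genes tested were 40.9% higher and 41.7% lower, with 82.7% past the threshold. IRF1, IRF9 and SOCS1 were listed at 0. IFNGR1, a chain of the interferon-gamma receptor, fell from 201.1 ± 4.76 to 19.62 ± 1.08 CPM. JAK2 had 9.224 ± 0.677 and 9.759 ± 0.689 CPM and did not pass (log2 fold change 0.08, SE 0.077, edgeR adjusted p = 0.324). PTPN2, a phosphatase that restrains JAK and STAT proteins, fell from 126.5 ± 1.91 to 41.25 ± 1.88 CPM. The members that rose were CIITA, the activator of MHC class II genes, from 1.135 ± 0.144 to 8.252 ± 0.308 CPM, and NLRC5, its MHC class I counterpart, from 22.65 ± 0.212 to 26.95 ± 1.05 CPM.

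Of 11 transcription factors that have been linked to CD274 expression, 9 rose and 2 fell (median log2 fold change 0.57). Among all genes tested, 40.9% rose and 41.7% fell. ZEB1 rose from 0.6549 ± 0.128 to 86.7 ± 0.79 CPM, and FOSL1, an AP-1 subunit gene, from 29.27 ± 2.33 to 758.8 ± 29.7 CPM. YAP1 fell by 0.13 on the log2 scale.

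All 14 genes that handle the PD-L1 and CD47 proteins passed, 7 higher and 7 lower (median log2 fold change 0.09). Of all genes tested, 82.7% passed. CMTM6, which keeps PD-L1 at the surface, rose from 25.14 ± 0.736 to 49.29 ± 0.783 CPM. SPOP, a ubiquitin ligase adaptor that targets PD-L1, rose from 24.05 ± 1.03 to 66.06 ± 1.71 CPM, and STT3B, a subunit of oligosaccharyltransferase, from 126.3 ± 5.07 to 255.6 ± 5.06 CPM. B3GNT3, a glycosyltransferase of PD-L1, fell from 98.81 ± 2.32 to 8.072 ± 0.034 CPM, and GSK3B, a kinase that marks PD-L1 for degradation, from 140.2 ± 2.89 to 63.05 ± 1.1 CPM. QPCTL, which modifies CD47 so that SIRP-alpha can bind, had 25.91 ± 0.499 and 23.78 ± 1.12 CPM (log2 fold change -0.12, edgeR adjusted p = 0.0212), a call lost in 5 of 13 alternatives, among them without shControl replicate 1 or 3 and without shCK5 replicate 3 (adjusted p up to 0.212).

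CD274 and PDCD1LG2 are neighbours on chromosome 9, and the genes around them did not share their rise. Within 500 kb of CD274, 10 other tested genes could be placed. PDCD1LG2 rose, 5 fell (RLN2, PLGRKT, RIC1, ERMP1 and KIAA2026) and JAK2, INSL6, HMGN2P31 and RLN1 did not pass. Over all genes tested, 40.9% rose and 41.7% fell. ERMP1, an endoplasmic reticulum metallopeptidase gene, fell from 124.2 ± 1.21 to 16.26 ± 0.322 CPM. PLGRKT and RIC1, on either side of the pair, had log2 fold changes of -0.5 (SE 0.0778) and -0.68 (SE 0.0604). RLN2 rested on low counts, and its call was lost without shControl replicate 3 (edgeR adjusted p = 0.159) and without shCK5 replicate 1 or 2 (0.0705 and 0.0586). RANBP6, within that distance of PDCD1LG2 alone, did not pass (log2 fold change 0.09).

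**Figure D4:**
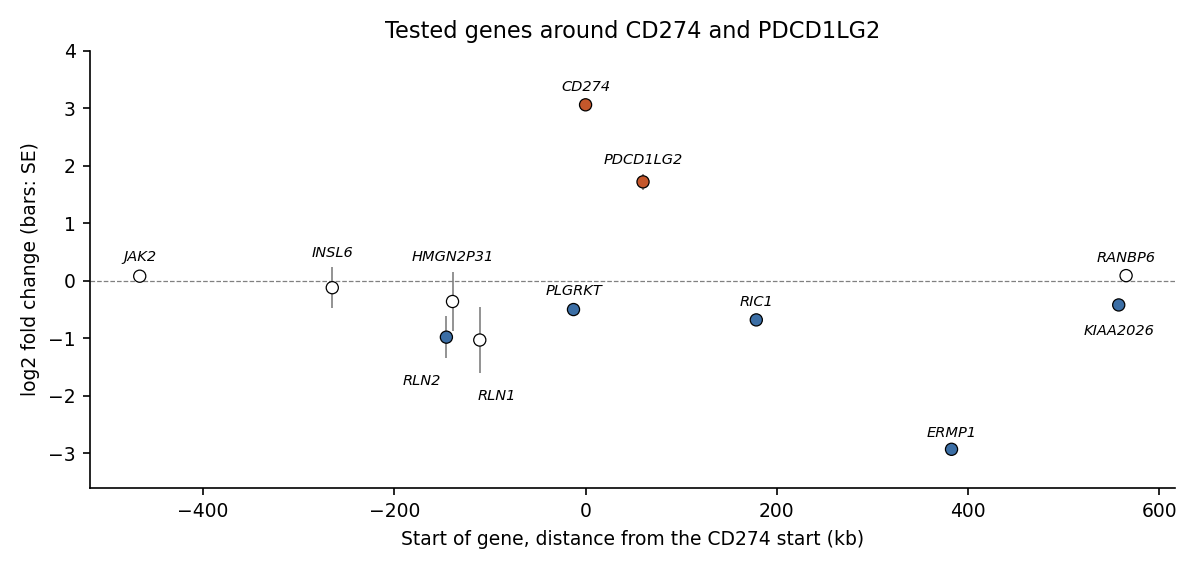
Log2 fold change (shCK5 minus shControl, bars give SE) of tested genes within 500 kb of CD274 or PDCD1LG2 against the distance of their start from that of CD274, in kb; orange is higher, blue is lower and white did not pass. CD274 (3.06) and PDCD1LG2 (1.72) stand above 0, while the other genes lie between -2.93 and 0.09.

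Over the 6 libraries, the 3 genes with the profile closest to that of CD274, by Euclidean distance between log2 CPM values centred on each gene's mean, were LGALS1 (distance 0.112), ZBED5-AS1 (0.116) and SEMA3A (0.123). For VTCN1 they were CD24 (0.194), MME (0.199) and TRIL (0.279). With 2 groups of libraries such likeness mostly reflects an equal fold change: that of LGALS1 was 3.1 and that of CD24 -6.44 on the log2 scale.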

How the data were processed

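Raw read counts per gene name were deposited by the authors in 1 table for the 6 libraries, with no normalization. Tools named, without versions, in the submitters' processing notes are cutadapt, STAR, SAMtools and Cufflinks, and the build is GRCh38; per the file headers, sorted alignments were counted. How reads were counted (program, strand, annotation, multi-mapping) is, in the sources used here, not given. Of the counts above 20, 63.1% to 65% were even, which would follow if both mates of a fragment were counted; intervals, which cover counting error only, would then be too narrow.

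With edgeR 4.0.16 in R 4.3.3, low rows were removed by filterByExpr (19567 genes left), and libraries were scaled with TMM factors and compared with the quasi-likelihood test, without covariates, with Benjamini-Hochberg adjustment over all genes tested. Each SE was derived from the fold change and its F statistic. The fit was run on simulated counts with 200 genes changed. Far more genes passed in the data, so that run does not cover scaling when most genes differ. GENCODE 29 supplied coordinates, exon lengths and overlaps, and may differ from the annotation the authors used. Neighbours could be sought only among the 16242 tested genes with a unique name in GENCODE 29, so some tested genes nearby may be missing. Start windows came from the RefSeq table. The ligands and lists were chosen with earlier results of these data known. From each related list, the 2 largest rises and 2 largest falls past the threshold with at least 1 CPM in a group are named, and the highest gene of each marker list; JAK2, IRF1, CMTM6, QPCTL, and the receptors and partners, were named whatever their values. Alternatives were other scalings, filters and tests, halved counts, a replicate block and leaving out each library. Some genes that the rule names are not reported here.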

Additional observations from a re-analysis of the deposited data

How the results depend on the processing

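The 7 tested ligands kept their direction and their side of the threshold in all 13 alternatives. CD274 ranged from 2.92 to 3.1 on the log2 scale, PDCD1LG2 from 1.58 to 1.82, CD276 from 0.61 to 0.77, CD47 from 0.3 to 0.51, VTCN1 from -6.51 to -6.23, ICOSLG from -3.73 to -3.5 and LGALS9 from -3.96 to -3.71. With library size alone, the median of all genes tested moved from -0.019 to -0.156. Replicate numbers did not pair the libraries: same-numbered ones correlated in their deviations at -0.0105 to 5.75e-05, and the replicate block called 15926 genes against 16177. Leaving out 1 library gave 16064 to 16177. DESeq2 1.42.0 called 15771. Without a filter, CD80 was at -0.78 on the log2 scale (SE 1.09, edgeR adjusted p = 0.543). Low counts limit CD80, and the row at 0 limits PVR.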

Other observations

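Neighbours of VTCN1 were also lower. Of 6 tested genes within 500 kb, 5 fell, against 41.7% of all genes tested, and MAN1A2 did not pass (median log2 fold change -1.8). The nearby immunoglobulin superfamily genes PTGFRN and IGSF3 fell from 115.2 ± 3.07 to 4.655 ± 0.132 CPM and from 102 ± 2.37 to 13.2 ± 0.131 CPM, and CD101 from 3.596 ± 0.509 to 0.198 ± 0.123 CPM (SD, n = 3 each; chosen after their values were seen). TTF2 and MAN1A2, which lie in the same stretch, had log2 fold changes of -0.16 and -0.06, far smaller than that of VTCN1.

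Among all genes tested, 40.9% rose and 41.7% fell. Around ICOSLG, 11 of 14 tested neighbours fell and 2 rose (median log2 fold change -0.84), around CD80 8 of 12 fell and 3 rose (median -1.14), and around the PVR row, which has no counts, 18 of 21 fell and 3 rose (median -0.48). Around LGALS9, which fell itself, 1 of 4 neighbours rose and 1 fell (median 0.01), and around CD276, which rose, 5 of 11 rose and 5 fell (median 0.55). Around CD47, 3 of 6 rose and 2 fell. HHLA2, another B7 family gene within that distance of CD47, had the lowest log2 fold change there, -1.96, from 0.517 ± 0.0423 CPM in shControl to 0.1308 ± 0.0748 CPM in shCK5.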
